A study of Homo sapiens with 2 samples.

Results

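The 10 genes described here belong to the Notch pathway and were followed through 2 single-cell libraries of human enteric neural crest differentiation. They were the receptors NOTCH1, NOTCH2 and NOTCH3, the ligands DLL1, DLL3 and JAG1, and the transcription factors HES1, HES5, HES6 and HEY1. The genes were chosen by name, as receptors, ligands and target genes of the pathway that are listed in both count tables, and all 10 of 10 were found among the 33694 genes listed. All cells were derived from 1 line of human embryonic stem cells, H9, and received no treatment other than the differentiation media. The D10 library (n = 1) was made from adherent cultures on Geltrex, in which pluripotent cells had been directed to ectoderm and neural crest with the inhibitor SB431542, the Wnt agonist CHIR 99021 and BMP4, and then to an enteric, vagal fate with retinoic acid. The D15 library (n = 1) was made from free-floating crestospheres, formed in ultra-low-attachment plates after the monolayer had been detached and placed in NC-C medium, which holds FGF2 and CHIR 99021. By the design text deposited with the series, each library pooled cells of 2 biological repeats, which the cell metadata do not separate, while the labels give a single differentiation replicate. Stage, culture format, medium, depth and library cannot be told apart, and with 1 library a stage no p-value could be given.

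Notch receptors and their ligands are both membrane proteins, so the pathway carries signals between touching cells. A ligand of the Delta-like or Jagged family on one cell leads to cleavage of the receptor on its neighbour, and the freed intracellular domain joins the DNA-binding protein RBPJ to switch on genes of the HES and HEY families. These repressors hold back proneural genes such as NEUROG1, which themselves induce Delta ligands, and in the developing enteric nervous system the pathway is known for keeping neural crest cells in a progenitor state. DLL3 is an atypical Delta ligand that acts mostly inside the cell, and HES6 is an atypical family member that antagonises HES1 and follows proneural factors rather than Notch.

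The promoters of HES1, HES5 and HES6 are shown because these 3 family members, described below, did not move alike. Promoters in RefSeq (GRCh38.p14, 250 bases before to 50 bases after the annotated start) were found for 7 of the 10 genes. DLL1, DLL3 and HEY1 were not matched in that table. The motif searched for RBPJ was TGGGAA, with the longer form GTGGGAA that contains it, and the motif for proneural factors was the E-box CAGCTG, each on both strands; matches are in capitals.
HES1, chr3:194135898-194136197, plus strand: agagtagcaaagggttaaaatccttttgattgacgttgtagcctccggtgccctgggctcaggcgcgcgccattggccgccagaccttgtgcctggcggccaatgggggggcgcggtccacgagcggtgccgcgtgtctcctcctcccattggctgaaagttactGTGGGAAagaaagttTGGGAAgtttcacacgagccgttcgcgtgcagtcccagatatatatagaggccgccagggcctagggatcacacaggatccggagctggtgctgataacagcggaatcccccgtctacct
HES5, chr1:2530214-2530513, minus strand: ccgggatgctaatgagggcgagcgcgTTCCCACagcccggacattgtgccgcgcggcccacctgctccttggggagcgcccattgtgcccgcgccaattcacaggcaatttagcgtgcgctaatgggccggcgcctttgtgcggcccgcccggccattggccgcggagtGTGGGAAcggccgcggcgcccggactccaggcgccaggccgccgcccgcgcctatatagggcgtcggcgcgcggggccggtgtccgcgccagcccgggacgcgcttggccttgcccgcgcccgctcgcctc
HES6, chr2:238239989-238240288, minus strand: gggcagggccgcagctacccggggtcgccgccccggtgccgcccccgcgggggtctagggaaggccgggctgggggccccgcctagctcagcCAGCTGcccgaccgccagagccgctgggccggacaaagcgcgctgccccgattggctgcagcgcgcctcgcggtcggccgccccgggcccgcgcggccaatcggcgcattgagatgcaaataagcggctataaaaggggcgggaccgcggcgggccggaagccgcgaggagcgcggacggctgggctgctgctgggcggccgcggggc
The HES1 promoter held the longer RBPJ motif 85 bases before the start and a further TGGGAA 70 bases before it. The HES5 promoter held the longer form 81 bases before the start, and again on the opposite strand 224 bases before it. The HES6 promoter held neither, and had an E-box 158 bases before the start. The same letters are common elsewhere, since 6.25% of 35116 promoters hold GTGGGAA, 24.0% hold TGGGAA and 17.9% hold CAGCTG. None of these motifs was found in the 300-base windows of NOTCH1, NOTCH2, NOTCH3 or JAG1. Such matches describe letters in a window and are no measurement of binding. The genes themselves span chr3:194136145-194138732 (HES1), chr1:2528745-2530245 (HES5) and chr2:238238267-238240662 (HES6) in GRCh38 with GENCODE 29 annotation.

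Gene expression was measured by droplet-based 3′ sequencing, as counts of unique molecular identifiers (UMIs, which mark single captured RNA molecules). The D10 library held 9627 cells and 70488169 UMIs with a median of 6713 per cell, and the D15 library held 6320 cells and 84976253 UMIs with a median of 11770.5. The authors kept 7295 cells at D10 and 5336 at D15, and only those carry a cell type. The 2 libraries shared 102 barcodes, 1.06% of D10 and 1.61% of D15 cells. Levels below are UMIs of a gene per 1000000 UMIs of the same cells (CPM), with exact 95% Poisson intervals in brackets, and shares of cells carry exact 95% Clopper-Pearson intervals. Both cover counting error only. Because the counts are not scaled to transcript length, levels are compared within a gene and not between genes. In such summed counts, fewer expressing cells and less RNA per cell cannot be told apart. Overlapping or near-identical genes limit some counts, as the NOTCH2NL genes are near copies of NOTCH2, and DLL1, JAG1, NOTCH1, HES5 and HES6 overlap an annotated gene on the opposite strand. On the same strand, DLL1 overlaps a long non-coding RNA gene, and NOTCH1, NOTCH3 and JAG1 each overlap a microRNA gene.

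The deposited types were enteric neural crest cells (ENCCs), neuro-epithelial progenitors (NEP), non-neural ectoderm (NNE), cranial placode (CP at D10, CP1 and CP2 at D15) and mesenchymal cells (Mes). ENCCs made up 67.5% of kept cells at D10 (4921 cells) and 92.5% at D15 (4934 cells), and were divided by the authors into subclusters 1 to 4 at D10 and 1′ to 4′ at D15, made separately in each library. By summed levels, marker lists went against the CP label at D10 and 2 of the D15 labels. The D10 CP cluster had 637 CPM for ENCC markers and 353 CPM for CP markers, although 2 of its 10 leading genes were CP markers. D10 NEP had 1321 CPM for NNE markers, close to its 1416 CPM for NEP markers. The D15 cluster labelled NEP had a summed level of 928 CPM for NNE markers and 267 CPM for NEP markers, and CP2 had 433 CPM for NEP markers and 430 CPM for CP markers. The D10 NEP cluster expressed WNT2B at 827 CPM and PAX6 at 572 CPM, while SOX1 and LHX2, also on the list, were at 0.214 and 0 CPM. At D10, 256 cells were typed as ENCCs but left outside the 4 subclusters, and these had 188 CPM of ENCC markers against 1125 CPM of NEP markers. Only ENCCs were therefore compared between the stages by name, and results were also computed without those 256 cells. Since types and subclusters were made from these same counts, differences between them are descriptions. None of the 10 genes was among the 10 leading genes of any type.

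**Figure D1:**
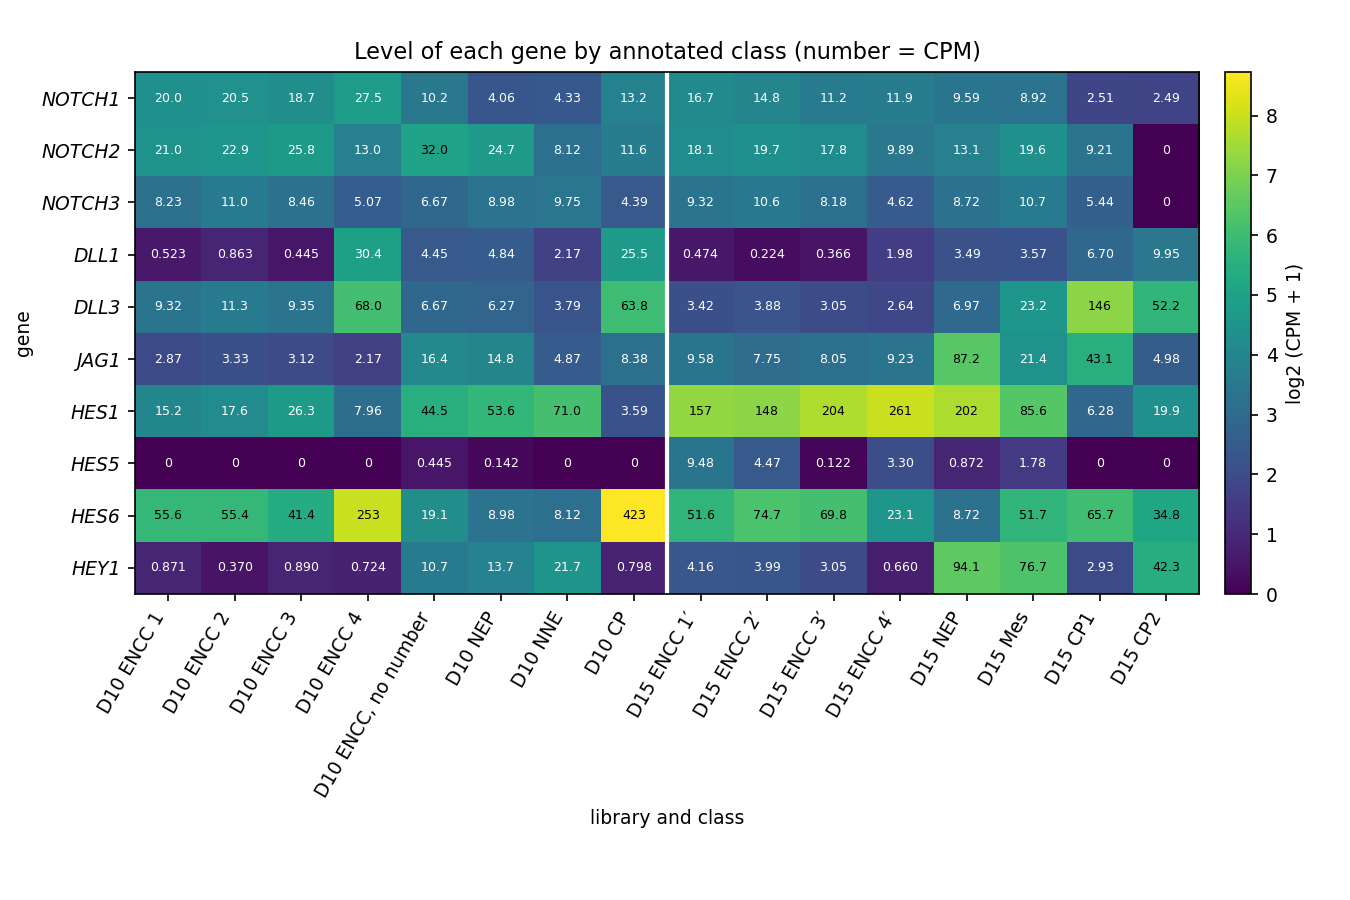
Level of each Notch gene (rows) in the 16 annotated classes with at least 40 kept cells (columns, D10 left and D15 right of the white line), coloured by log2 (CPM + 1) with CPM printed in each field. DLL1, DLL3 and HES6 stood out in ENCC 4 and CP at D10, and DLL3 was highest in D15 CP1. HES1 stood out in the D15 ENCC subclusters and D15 NEP, and HEY1 in D15 NEP and Mes.

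In ENCCs, the target genes HES1, HES5 and HEY1 were higher at D15 than at D10 and the Delta ligands DLL1 and DLL3 were lower, while the receptors and HES6 differed by less than 2-fold. HES1 was 9.03 times higher (8.34 to 9.78), DLL3 was 3.28 times lower (2.77 to 3.89), and NOTCH1, NOTCH2 and NOTCH3 had ratios between 0.753 and 1.12. On the scale of log2 ratios of CPM + 1, with 2-fold as the limit, 3 of the 10 genes were higher (HES1, HES5 and HEY1) and 2 were lower (DLL1 and DLL3). Over all 8692 genes with a mean of at least 5 CPM, 7.43% were at least 2-fold higher and 5.03% at least 2-fold lower. The median log2 ratio was 0.13 over the 10 genes and −0.13 over all genes. Of the 10 genes, 7 passed this limit on low values, of which 1 was higher (HES1) and 1 lower (DLL3). DLL1, HES5 and HEY1 did not pass it. Scaling by TMM factors, edgeR's trimmed mean normalization, moved the median of all genes from −0.13 to 0.05 and the share of higher genes among all calls from 59.6% to 73.2%, and HES1 then had a log2 ratio of 3.28. With TMM factors JAG1 passed the 2-fold limit, at 1.14, and DLL1 missed it, at −0.99.

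**Figure D2:**
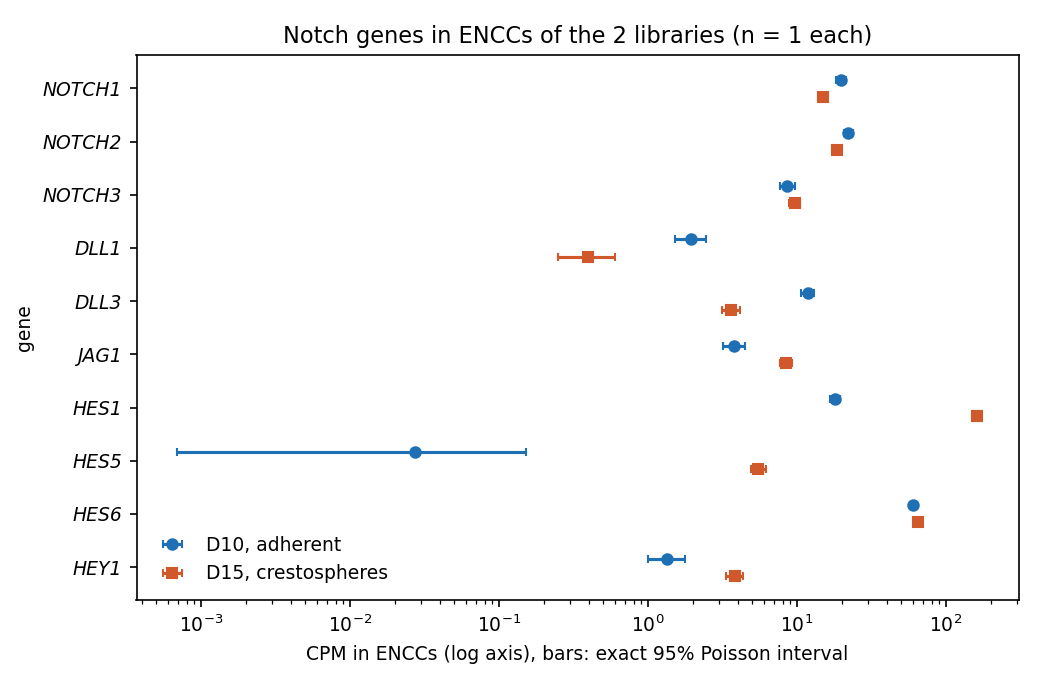
CPM of the Notch genes in ENCCs (log axis) at D10 (circles) and D15 (squares), 1 library each, with exact 95% Poisson intervals as bars. HES1 moved from 17.9 to 162 CPM and HES5 from 1 UMI to 307 UMIs, while the receptors and HES6 lay within 2-fold.

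The receptors were present in ENCCs of both libraries. NOTCH1 (chr9:136494433-136545786, minus strand) was at 19.7 CPM (18.3 to 21.2) in D10 ENCCs and at 14.9 CPM in D15 ENCCs, 1.33 times lower (1.20 to 1.47). It was low in D10 NEP, at 4.06 CPM (3.08 to 5.26), and in CP1, at 2.51 CPM (0.922 to 5.47), whereas CP had 13.2 CPM (9.06 to 18.5). Over the numbered subclusters it lay between 18.7 CPM (ENCC 3) and 27.5 CPM (ENCC 4) at D10 and between 11.2 CPM (ENCC 3′) and 16.7 CPM (ENCC 1′) at D15, with intervals of neighbours in the order of all classes overlapping throughout. NOTCH2 (chr1:119911553-120069626, minus strand) was at 22.1 CPM in D10 and 18.6 CPM in D15 ENCCs, and unlike NOTCH1 it was not lower in D10 NEP, at 24.7 CPM (22.2 to 27.5). Its level was lower in ENCC 4, at 13.0 CPM (7.72 to 20.6), in CP, at 11.6 CPM (7.75 to 16.6), and in CP1, at 9.21 CPM (5.77 to 13.9). It was also low in NNE, at 8.12 CPM, and in ENCC 4′, at 9.89 CPM, so the low NOTCH2 levels included classes with many and with few Delta UMIs. NOTCH3 (chr19:15159038-15200981, minus strand) was at 8.63 CPM in D10 and 9.65 CPM in D15 ENCCs, a ratio of 1.12 (0.971 to 1.29), and at 8.98 CPM in D10 NEP. Its levels in the 16 classes ran from 0 in CP2, where the floor of 3 UMIs is 7.46 CPM, to 11.0 CPM in ENCC 2, and neighbours in this order all overlapped.

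The Delta ligands had their highest levels in 1 small ENCC subcluster and in the placode cells. DLL1 (chr6:170282206-170306565, minus strand), a ligand that activates Notch on neighbouring cells, was at 30.4 CPM (21.9 to 41.1) in ENCC 4 and at 25.5 CPM (19.7 to 32.6) in CP at D10, which did not differ beyond their intervals. In ENCC 1 to 3 its level was between 0.445 and 0.863 CPM. D10 NEP had 68 DLL1 UMIs, or 4.84 CPM (3.76 to 6.14), 2.49 times the level of all D10 ENCCs (1.76 to 3.51). The 187 cells of ENCC 4 were 3.80% of D10 ENCCs and held 42 of their 72 DLL1 UMIs, or 58.3% (46.1 to 69.8%). DLL3 (chr19:39498895-39508481, plus strand) was at 68.0 CPM (55.0 to 83.3) in ENCC 4 and 63.8 CPM (54.3 to 74.5) in CP, against 9.32, 11.3 and 9.35 CPM in ENCC 1 to 3. ENCC 4 held 21.6% (17.8 to 25.7%) of the DLL3 UMIs of D10 ENCCs, while ENCC 1, with 61.0% of the cells, held 49.1% (44.3 to 53.9%). ENCC 4 thus held a larger part of the DLL1 than of the DLL3 UMIs. Relative to ENCC 1, ENCC 4 was 58.2 times higher for DLL1 (30.1 to 121) and 7.30 times higher for DLL3 (5.67 to 9.35), a pair chosen after its values were seen.

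At D15 no ENCC subcluster carried DLL1 at such a level. DLL1 lay between 0.224 CPM in ENCC 2′ and 1.98 CPM in ENCC 4′, the latter from 3 UMIs. In all ENCCs it went from 1.95 CPM (72 UMIs) to 0.394 CPM (22 UMIs), a log2 ratio of −1.08. DLL1 was past 2-fold in 7 of 12 settings, the reported one included, with log2 ratios between −1.45 and −0.26. The call rested on subcluster 4, since with subclusters 1 to 3 of each library alone, a setting added after the data were seen, the log2 ratio was −0.26. For DLL3 it was −1.48 in all ENCCs and −1.24 in those subclusters, and the highest D15 subcluster, ENCC 2′ at 3.88 CPM (3.17 to 4.70), was below the lowest at D10. Over all deposited cells, kept and removed, the log2 ratio of DLL3 turned to 0.96. CP1 had the highest DLL3 level of all classes, at 146 CPM (131 to 162), which no other class overlapped, and CP2 had 52.2 CPM (32.3 to 79.9). With each cell thinned to 3000 UMIs, 26.4% of CP1 cells (20.6 to 33.0%) had a DLL3 UMI against 0.993% of D15 ENCCs (0.736 to 1.31%); the median depths before thinning were 11734.5 and 11082 UMIs.

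JAG1 (chr20:10637684-10673999, minus strand), a Jagged ligand, was distributed differently from the Delta ligands. Its highest level was 87.2 CPM (70.9 to 106) in the D15 cluster labelled NEP, followed by 43.1 CPM (35.2 to 52.3) in CP1. In ENCC 4, where DLL1 and DLL3 were high, JAG1 had 3 UMIs, or 2.17 CPM (0.448 to 6.35). In ENCCs it was at 3.79 CPM (3.19 to 4.47) at D10 and 8.45 CPM (7.71 to 9.25) at D15, 2.23 times higher (1.84 to 2.71), with a log2 ratio of 0.98. The 256 D10 cells outside the numbered subclusters were 5.20% of ENCCs and held 26.4% of their JAG1 UMIs. Without them the log2 ratio was 1.25. All 4 D15 subclusters, between 7.75 and 9.58 CPM, were above the 4 of D10, between 2.17 and 3.33 CPM, although the intervals of the smallest subclusters overlapped.

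HES1, a widely expressed target of Notch, separated the 2 libraries in every ENCC subcluster. At D10 ENCC 1 had 15.2 CPM (13.7 to 16.9), ENCC 2 had 17.6 CPM, ENCC 3 had 26.3 CPM (20.0 to 33.9) and ENCC 4 had 7.96 CPM (3.98 to 14.2). At D15 ENCC 1′ had 157 CPM, ENCC 2′ had 148 CPM (143 to 152), ENCC 3′ had 204 CPM and ENCC 4′ had 261 CPM (235 to 288). The groups of subclusters did not overlap. HES1 was lowest in the D10 subcluster with the most DLL1, 1.91 times lower in ENCC 4 than in ENCC 1 (1.06 to 3.87), and within D15 it was 1.76 times higher in ENCC 4′ than in ENCC 2′ (1.59 to 1.96). After thinning to 3000 UMIs, the share of ENCCs with a HES1 UMI was 5.18% (4.58 to 5.84%) at D10 and 33.8% (32.5 to 35.2%) at D15, and without thinning it was 11.2% and 68.2%. In CP1 of the same D15 library, thinned in the same way, 1.92% of cells (0.526 to 4.85%) had one, so the D15 ENCC share was above that of a type with little HES1. The median depths before thinning were 7004 UMIs in D10 ENCCs, 11082 in D15 ENCCs and 11734.5 in CP1. Thinned shares of the 2 stages had intervals apart for 7 of the 10 genes, against 56.2% of all 8692 genes by the same rule, so the number of genes apart is not particular to this set. Across the alternative settings within ENCCs the log2 ratio of HES1 lay between 2.84 and 3.28, and over all deposited cells it was 2.15.

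HES5, a target gene closely tied to Notch activity in neural progenitors, was found mainly at D15. It had 1 UMI in all D10 ENCCs, outside the numbered subclusters, and 307 UMIs in D15 ENCCs, 0.0271 and 5.50 CPM. The ratio of 203 has a counting interval from 36.2 to 8048. HES5 was rare also at D15, as 1.18% (0.894 to 1.52%) of D15 ENCCs had a UMI after thinning, against 0 of 4919 at D10, which allows up to 0.0610%. In CP1 it was 0 of 208, which allows up to 1.44%, so these cells are too few to set ENCCs apart by share. In contrast to HES1, HES5 was uneven over D15 subclusters. ENCC 1′ had 9.48 CPM (8.14 to 11.0), ENCC 2′ had 4.47 CPM (3.71 to 5.35) and ENCC 4′ had 3.30 CPM (1.07 to 7.70), whereas ENCC 3′, with 8194772 UMIs in all, had a single HES5 UMI, or 0.122 CPM (0.00309 to 0.680). ENCC 1′ made up 33.7% of D15 ENCCs and held 58.6% (52.9 to 64.2%) of their HES5 UMIs. ENCC 3′ was thus high in HES1 and nearly without HES5.

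**Figure D3:**
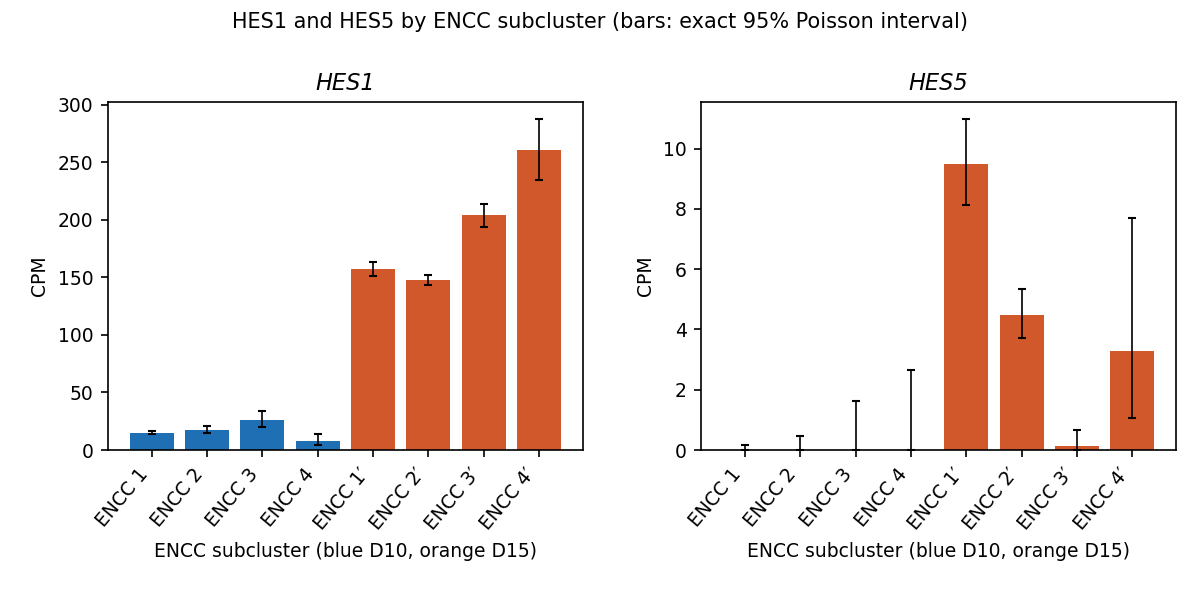
CPM of HES1 (left) and HES5 (right) in the numbered ENCC subclusters of D10 (blue) and D15 (orange), bars from 0 with exact 95% Poisson intervals. Every D15 subcluster was above every D10 subcluster for HES1, while HES5 at D15 ranged from 0.122 CPM in ENCC 3′ to 9.48 CPM in ENCC 1′.

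At D10, HES6 was highest in the same classes as the Delta ligands. It was highest in CP at D10, at 423 CPM (398 to 449), and next in ENCC 4, at 253 CPM (227 to 281), and these did not overlap each other or any other class. In ENCC 1, 2 and 3 it was at 55.6, 55.4 and 41.4 CPM, so ENCC 4 was 4.55 times higher than ENCC 1 (4.03 to 5.12). In all ENCCs it was at 59.8 CPM (57.3 to 62.4) at D10 and 64.5 CPM (62.5 to 66.7) at D15, a ratio of 1.08 (1.02 to 1.14); in G1 cells alone its log2 ratio was −0.09 in place of 0.11. Over the D15 subclusters it ran from 23.1 CPM (16.1 to 32.1) in ENCC 4′ to 74.7 CPM (71.4 to 78.0) in ENCC 2′. ENCC 4′ thus had the highest HES1 and the lowest HES6 of the D15 subclusters. CP1 had DLL3 at its highest level but HES6 at 65.7 CPM (55.9 to 76.9), near that of D15 ENCCs.

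HEY1 (chr8:79764010-79767863, minus strand), a repressor of the related HEY family, had its highest levels outside the neural crest. It was at 94.1 CPM (77.2 to 114) in the D15 cluster labelled NEP, at 76.7 CPM (55.5 to 103) in Mes and at 42.3 CPM (24.6 to 67.7) in CP2. At D10 it was at 21.7 CPM in NNE and 13.7 CPM in NEP. Relative to D15 ENCCs it was 24.7 times higher in NEP (19.4 to 31.3) and 20.1 times higher in Mes (14.1 to 28.0), whereas HES1 was 1.25 times higher in NEP (1.09 to 1.42) and 1.89 times lower in Mes (1.43 to 2.57). In ENCCs HEY1 went from 1.35 CPM (50 UMIs) to 3.81 CPM (213 UMIs), 2.82 times higher (2.06 to 3.92). Of the 50 UMIs at D10, 24 came from the 256 cells outside the numbered subclusters, and without those cells the log2 ratio was 1.46 in place of 1.03. HEY1 was past 2-fold in 8 of 12 settings, the reported one included. Its log2 ratio was 0.64 in G1 cells alone and 0.98 without the tenth of cells with the most UMIs. With a pseudocount of 5 CPM it was 0.47, and over all deposited cells 0.19.

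At D10, NEP cells had more JAG1, HES1 and HEY1 and less NOTCH1 and HES6 than ENCCs. NEP was at least 2-fold higher than ENCCs for 3 of the 10 genes, JAG1, HES1 and HEY1, and at least 2-fold lower for 2, NOTCH1 and HES6; 8 passed the limit on low values. Over all 9282 genes tested, 11.7% were higher and 2.45% lower by this limit. JAG1 and HEY1, at 3.79 and 1.35 CPM in ENCCs, passed the limit on low values only through NEP, and NOTCH1 only through ENCCs. The count of genes is therefore not read as a result. HEY1 was 10.2 times higher in NEP (7.41 to 14.2), JAG1 was 3.91 times higher (3.14 to 4.88) and HES1 was 2.99 times higher, at 53.6 CPM against 17.9 CPM (2.69 to 3.32). HES6 was 6.66 times lower (5.57 to 8.04) and NOTCH1 was 4.86 times lower (3.71 to 6.48). The median log2 ratio was 0.15 over the 10 genes and 0.16 over all genes. TMM factors moved the latter to −0.14, and the share of higher genes among all calls from 82.7% to 60.9%. With TMM factors DLL3 also passed as lower in NEP, at −1.10.

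Placode cells of both libraries had more Delta ligand and less HES1 than ENCCs. In CP at D10, 3 of the 10 genes were at least 2-fold higher than in ENCCs, DLL1, DLL3 and HES6, and 1 was lower, HES1, with 8 passing the limit on low values. The share over all 8848 genes tested was 5.17% higher and 2.06% lower. DLL1, at 1.95 CPM in ENCCs, passed the limit on low values only through CP. HES1, at 3.59 CPM in CP, passed it only through ENCCs, so no result is read from the count. DLL1 was 13.1 times higher (9.21 to 18.6), HES6 7.07 times higher (6.57 to 7.62) and DLL3 5.41 times higher (4.48 to 6.50). HES1 was 5.00 times lower (2.62 to 11.0), from 9 UMIs in CP. The medians were −0.21 over the 10 genes and 0.02 over all genes.

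In CP1 at D15, 3 genes were at least 2-fold higher than in ENCCs, DLL1, DLL3 and JAG1, and 3 were lower, NOTCH1, HES1 and HES5. DLL1, HES5 and HEY1 did not pass the limit on low values, which leaves 2 higher and 2 lower of the 7 genes that did. Over all 9105 genes tested, 14.8% were higher and 6.10% lower. DLL3 was 40.6 times higher (34.0 to 48.5), JAG1 5.10 times higher (4.08 to 6.33) and DLL1 17.0 times higher from 16 UMIs (8.35 to 33.9). HES1 was 25.8 times lower (15.6 to 46.1), NOTCH1 5.92 times lower (2.71 to 16.2) and HES5, with 0 UMIs in CP1, at least 4.38-fold lower, taking the floor of 3 UMIs in that class. The medians were −0.51 over the 10 genes and 0.20 over all genes. TMM factors moved the latter to −0.14 and the share of higher genes among all calls from 70.8% to 48.2%, and a total without mitochondrial and ribosomal protein genes gave −0.10 and 50.5%. Under both scalings NOTCH2 and NOTCH3 also passed the 2-fold limit as lower in CP1. CP and CP1 come from different libraries and were not compared with each other.

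**Figure D4:**
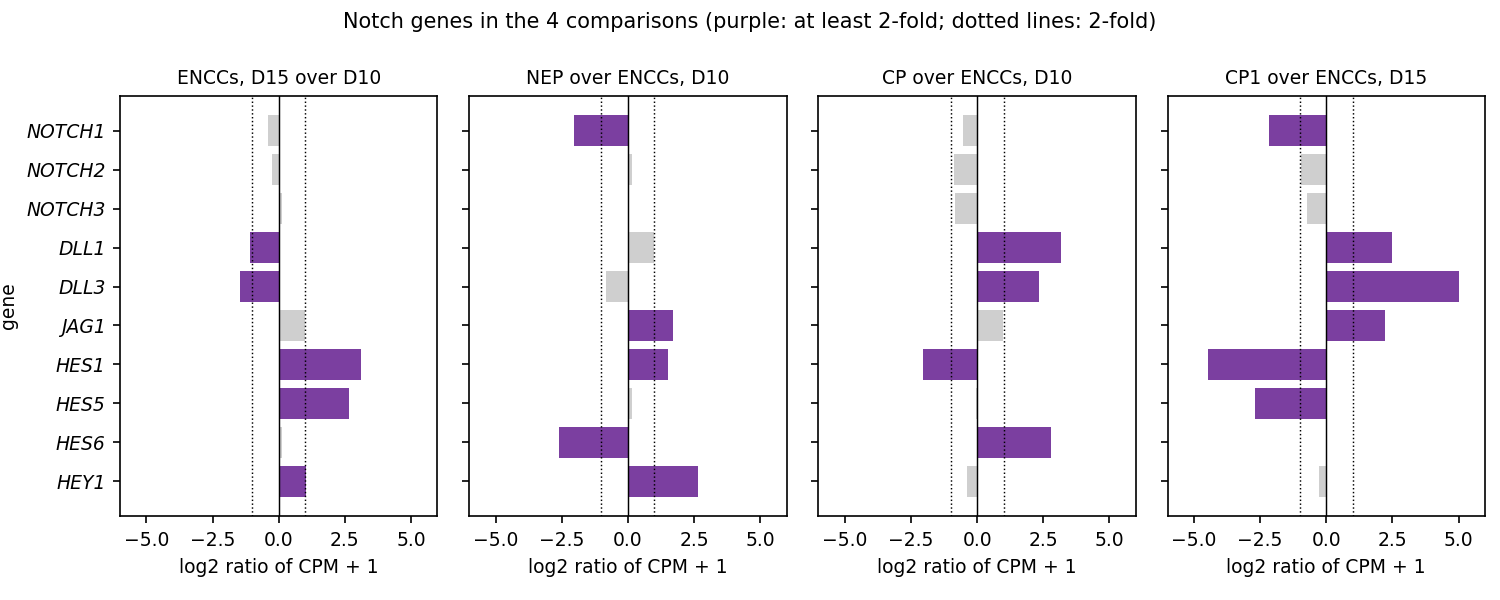
Log2 ratio of CPM + 1 for each Notch gene in the 4 comparisons, with dotted lines at 2-fold and purple bars for genes past it. Within each comparison DLL3 and HES1 pointed in opposite directions; the first 3 comparisons share the D10 ENCCs.

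The genes that go with Delta ligands in neurogenesis were examined next in a list of 12 proneural and neuroblast genes. Most of them had few UMIs in ENCCs and could pass the limit on low values only through the placode cells, some being leading genes of those clusters, so no count is given for CP and CP1. NEUROG1, a proneural factor of sensory lineages, was at 362 CPM in CP and at 117 CPM (99.2 to 136) in ENCC 4, against 8.54 to 15.6 CPM in ENCC 1 to 3. MFNG, which encodes a Fringe glycosyltransferase that alters the response of Notch to its ligands, was, like NEUROG1, high in both classes, with 75.4 CPM in CP, 31.1 CPM in ENCC 4 and at most 1.34 CPM in ENCC 1 to 3. ENCC 4 also had CP markers at a summed 31.1 CPM, against 6.88 to 7.65 CPM in ENCC 1 to 3 and 353 CPM in CP. Of these 6 markers, 5 were above the floor in ENCC 4, 6 in ENCC 1, 5 in ENCC 2 and 1 in ENCC 3. Among ENCC markers, TFAP2B was at 612 CPM in ENCC 4 and at 430 to 475 CPM in ENCC 1 to 3, and TFAP2A at 65.2 CPM against 23.6 to 39.1 CPM. The other 4 were lower in ENCC 4, with SOX10 at 104 CPM against 126 to 128 CPM, FOXD3 at 6.52 CPM against 17.3 to 28.5 CPM, ERBB3 at 18.8 CPM against 57.0 to 75.1 CPM and ETS1 at 18.1 CPM against 27.4 to 34.2 CPM. The part of these markers in the Delta signal of ENCC 4 was not tested.

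**Figure D5:**
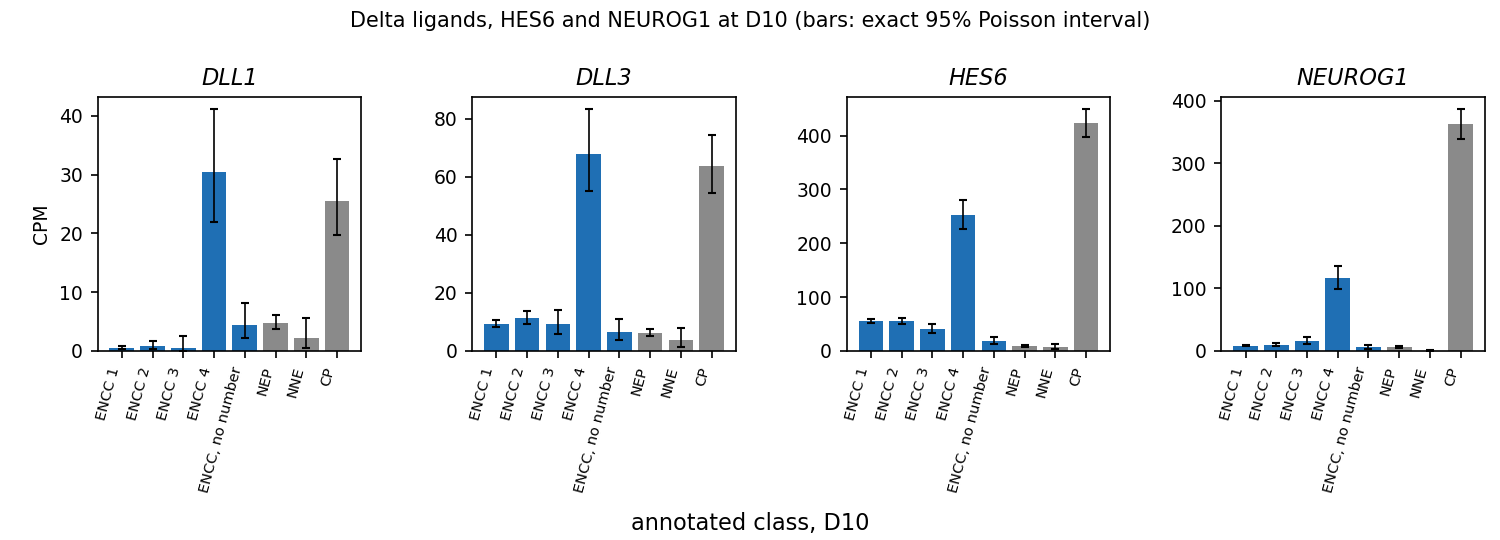
CPM of DLL1, DLL3, HES6 and NEUROG1 in the annotated classes of the D10 library (blue ENCC, grey other types), bars from 0 with exact 95% Poisson intervals and a separate axis for each gene. All 4 genes were higher in ENCC 4 than in ENCC 1 to 3, and HES6 and NEUROG1 were higher still in CP.

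Between the stages, the proneural genes of ENCCs did not move one way. NEUROG1 went from 13.2 CPM (12.1 to 14.4) to 0.179 CPM (10 UMIs), while STMN2, a neuronal microtubule regulator, went from 0.677 to 14.3 CPM and NEUROD1, a proneural factor that acts after NEUROG1, from 0.487 to 4.26 CPM. Over all 12 genes, 2 were at least 2-fold higher and 1 was lower. Only 3 of the 12 passed the limit on low values, with 1 higher (STMN2) and 1 lower (NEUROG1). STMN2 passed it only through D15 and NEUROG1 only through D10, so no result is read from these counts. Over all genes tested the shares were 7.43% and 5.03%. The 27 D15 ENCCs outside the numbered subclusters held 140 of the 796 STMN2 UMIs and 28 of the 238 NEUROD1 UMIs. Over all deposited cells, STMN2 went from 16.9 to 243 CPM, NEUROD1 from 7.33 to 83.2 CPM and NEUROG1 from 24.6 to 3.80 CPM. The part of RNA shed by other cells in these ENCC levels was not tested. In NEP at D10 NEUROG1 was just short of 2-fold lower, at 6.13 CPM in NEP and 13.2 CPM in ENCCs.

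At the level of single cells, Delta and HES6 UMIs were found together more often in D10 ENCCs as a whole but not clearly within a subcluster. After thinning to 3000 UMIs, 179 of 4919 cells (3.64%) had a UMI of DLL1 or DLL3. HES6 was at 114 CPM (86.9 to 146) in these and at 57.3 CPM (53.4 to 61.4) in the others, and NEUROG1 at 52.1 CPM (34.6 to 75.4) and 11.9 CPM (10.2 to 13.8). Of the 8 genes not used to choose the cells, HES6 was the only one with intervals apart (1 of 8), against 2.56% of 8648 genes. HES1 was at 13.0 CPM (5.24 to 26.9) in cells with a Delta UMI and 19.5 CPM in those without. Within ENCC 1, HES6 was at 69.0 CPM (40.9 to 109) and 56.4 CPM (51.5 to 61.6), and within ENCC 4 at 271 CPM (189 to 377) and 215 CPM (174 to 264), which overlap in both. The difference over all ENCCs therefore included the higher share of cells with a Delta UMI in ENCC 4, at 23.0%, against 2.90% in ENCC 1.

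By the cell cycle phase in the cell metadata, 3 of the 10 genes in each library had 1 phase above both others in ENCCs, counting intervals that do not overlap. Over all genes with at least 5 CPM in those ENCCs this share was 19.6% at D10 and 23.7% at D15, so 3 of 10 is near the background. At D10 they were DLL1, at 3.52 CPM (2.57 to 4.72) in G1 against 1.09 CPM in S and 1.15 CPM in G2M, DLL3, at 15.2 CPM in G1 against 10.1 and 9.91 CPM, and HES1, at 23.1 CPM in G1 against 14.9 and 15.6 CPM. At D15 they were HES5, at 7.20 CPM (6.17 to 8.36) in S against 4.45 CPM in G1 and 3.95 CPM in G2M, HES6, at 81.0 CPM in S against 51.5 and 53.3 CPM, and NOTCH2, at 24.7 CPM in G2M against 14.9 CPM in G1 and 17.6 CPM in S. Phases were called from expression and not measured, so these values describe the labels. In G1 cells alone the log2 ratio of HES1 between the stages was 2.84 and that of DLL3 was −1.89.

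The wider pathway was read from a list of 52 further Notch genes, which holds ligands, modifying enzymes, proteases, nuclear cofactors and other HES and HEY genes. In ENCCs, 28 of them passed the limit on low values, of which 3 were at least 2-fold higher at D15 (RFNG, MAML2 and HEY2) and 2 were lower (DTX3 and HEYL). These shares are near the 7.43% and 5.03% of all genes tested, so the counts are not particular to the list. MAML2 and HEY2 were under 5 CPM at D10 and passed the limit on low values only through D15. HEY2, a target gene of the HEY family, went from 4.41 to 18.7 CPM, 4.23 times higher (3.59 to 5.02). HEYL, of the same family, went from 23.6 to 5.41 CPM, a ratio of 0.229 (0.201 to 0.262). The 3 HEY genes thus did not move together, as HEY1 and HEY2 were higher and HEYL was lower. Among cofactors, MAML2, a coactivator of the Notch complex, went from 4.74 to 13.6 CPM, and RFNG, another Fringe enzyme, went from 5.39 to 12.9 CPM. DTX3, of the Deltex family, went from 16.9 to 6.25 CPM. The median log2 ratio over all 52 genes was −0.01, beside −0.13 over all genes tested.

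Against ENCCs at D10, NEP had 4 of 30 listed genes at least 2-fold higher and 1 lower, beside 11.7% and 2.45% of all genes. DLK1 and PSEN2 were under 5 CPM in ENCCs and passed the limit on low values only through NEP. HEYL, under 5 CPM in NEP, passed it only through ENCCs, so no result is read from the count. DLK1, a non-canonical ligand, was at 11.6 CPM in NEP and 0.974 CPM in ENCCs, TLE4, a corepressor that works with HES proteins, was at 84.2 and 18.6 CPM, PSEN2, a subunit of the protease that cuts Notch, was at 9.19 and 1.52 CPM, and RFNG was at 13.2 and 5.39 CPM. HEYL was at 2.64 CPM in NEP, so HEY1 and HEYL ran in opposite directions here too. In CP, MFNG, DLK1 and MAML3 were at least 2-fold higher, all from ENCC levels under 5 CPM, and DTX4 was lower, at 4.79 CPM against 15.1 CPM. MFNG, at 75.4 CPM against 1.87 CPM, had the largest ratio of these, 40.4 (30.5 to 54.0). In CP1, DLK2, MIB1, MAML3, TLE4, NUMBL, DTX3 and HES4 were at least 2-fold higher and MAML2 was lower. No count is read from these, since DLK2, MAML3 and NUMBL were under 5 CPM in ENCCs and 14.8% of all genes were higher in CP1. MIB1, the ubiquitin ligase that ligand-bearing cells need to activate Notch, was at 41.0 CPM in CP1 and 18.1 CPM in ENCCs, 2.27 times higher (1.83 to 2.80). NUMBL, related to the Notch inhibitor NUMB, was 6.54 times higher (4.49 to 9.34).

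Over the 16 classes, the genes whose log2 (CPM + 1) ran most like each Notch gene were ranked among 9488 genes by Pearson's r, which is given as a description because the classes share libraries and depth. The nearest were GYPC (0.916) and LINC01198 (0.895) for NOTCH1, CHD1L (0.944) and ZNF519 (0.938) for NOTCH2, and NDC1 (0.968) for NOTCH3. For the ligands they were VEZT (0.884) and NRP1 (0.866) for DLL1, XKR7 (0.916) and PTPN1 (0.893) for DLL3, and BBS7 (0.882) and IMPAD1 (0.857) for JAG1. For the HES and HEY genes they were P3H3 (0.884) and PLS3 (0.878) for HES1, PACSIN2 (0.809) and AFAP1L2 (0.795) for HES5, TRIM9 and, at 0.879, CCDC85B for HES6, and DYX1C1 (0.924) and CETN2 (0.901) for HEY1. No Notch gene was among the nearest 2 of another.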

How the data were processed

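Single-cell 3′ libraries (Chromium v3.1) of D10 and D15 H9 cultures were used, 1 per stage and grouped by their titles. The deposited tables hold raw UMI counts per gene and cell, which by the study's methods the authors extracted with kallisto and bustools and processed in Seurat; the submitters' processing notes list Cell Ranger, Seurat 4.0.4 and GRCh38. The gene annotation is not given in the sources used here. The cell metadata deposited by the authors give the percent of mitochondrial and ribosomal UMIs, a novelty score (not used here), and labels for phase, cell type and subcluster; cells the authors labelled as filtered were left out unless stated. UMI totals per cell equalled those in the metadata for all cells, and 0 columns belonged to other samples.

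For each class, UMIs of all its cells were added up and given as CPM with exact 95% Poisson intervals. Ratios carry conditional exact intervals. Genes were called past 2-fold on log2 (CPM + 1), and background shares were taken over genes with a mean of at least 5 CPM. Classes of at least 40 cells were ranked. For shares, each cell was thinned to 3000 UMIs. Shares carry Clopper-Pearson intervals. Alternatives were TMM scaling, a total without mitochondrial and ribosomal protein genes, pseudocounts of 0.5 and 5 CPM, no filter on low values, means of per-cell CPM, G1 cells alone, other sets of cells, and thinning to 5000 UMIs. A count of 0 was given a limit of 3 counts. No test was made between cells, and doublets were not called. The Notch genes and the pathway, proneural and marker lists were chosen with earlier results of these data known. Named genes were all 10 Notch genes, listed pathway genes with a mean of at least 5 CPM that passed 2-fold, the proneural list, and the 2 genes most like each Notch gene. Some genes of these lists and rankings are not reported here. Gene positions are from GENCODE 29 and promoters from RefSeq. Calculations used Python 3.11.15, numpy 2.4.6, scipy 1.17.1, pandas 2.3.3, matplotlib 3.10.9 and, for TMM factors, edgeR 4.0.16 in R 4.3.3, and were tested on simulated counts.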

Additional observations from a re-analysis of the deposited data

How the results depend on the processing

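The number of Notch genes past 2-fold in ENCCs between the stages, 5, fell to 2 with a pseudocount of 5 CPM and to 3 over all deposited cells. Over all deposited cells the log2 ratio of DLL3 was 0.96 in place of −1.48. The number of genes whose thinned shares lay apart, 7, fell to 3 when a cell needed at least 2 UMIs. The other 43 counts and rankings were within 1.5 times of their reported value. Of the log2 ratios of single genes between the stages, 79 moved by at most 0.5 times the width of their counting interval and 20 by more. Those 20 kept their direction where the reported value was past 2-fold. The remaining 1, DLL3 over all deposited cells, changed direction. The class with the highest DLL1 became CP, in place of ENCC 4, with the mean of per-cell CPM and without the tenth of cells with the most UMIs. In CP against ENCCs at D10, JAG1, at 0.97, passed 2-fold in 5 of its 10 settings, at up to 1.25: a pseudocount of 0.5 CPM, without the tenth of cells with the most UMIs, the mean of per-cell CPM, G1 cells and numbered ENCCs. Settings chosen after the data were seen were subclusters 1 to 3 alone, numbered ENCCs for the comparisons within a stage and for the phases, and thinning to 5000 UMIs for cells with a Delta UMI. No paired analysis was possible because each stage has 1 library. Genes with few UMIs, such as DLL1 and HES5, are limited by depth.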

Other observations

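The authors removed 984 D15 cells under a label of low quality, by limits that per the study's methods also cap genes and UMIs per cell. Their median depth was 21367 UMIs, against 11089 in kept cells, so they are not only shallow cells. Several Notch genes differed between removed and kept cells. DLL3 was at 60.5 CPM in removed and 9.81 CPM in kept cells, 6.17 times higher (5.60 to 6.79). DLL1 was 4.80 times higher (3.35 to 6.94) and HES1 was at 98.9 CPM in removed and 155 CPM in kept cells. Summed CP markers were at 447 CPM in removed and 52.5 CPM in kept cells; the part of these markers and of depth in the DLL3 level was not tested. At D10, where removed cells had a median of 3679 UMIs and kept cells 7101, DLL3 had a ratio of 0.867 (0.727 to 1.03) between removed and kept cells.

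Among HES genes outside the 10, HES4 went from 2 UMIs in D10 ENCCs to 334 UMIs in D15 ENCCs, and HES7 from 0.379 to 8.43 CPM with 56.1 CPM in ENCC 4′. Both were named after their values were seen, and neither reached a mean of 5 CPM over both libraries.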
